A study of Mus musculus with 8 samples.

Results

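Smc3, a core subunit of the cohesin ring, was mapped by chromatin immunoprecipitation and sequencing (ChIP-seq) in 2 lines of mouse embryonic stem cells, and its peaks in the tagged line C59 were set against those in the wild type (WT). All peaks of the deposited Smc3 lists that lie on the numbered autosomes were taken, 46349 in WT and 25400 in C59, which makes 71749 of the 254001 peaks in the 4 lists of the series. The WT cells were JM8.N4, grown without feeders in serum and LIF. C59 is a homozygous knock-in of the same line, labelled FLAG-Halo-CTCF/Rad21-SNAPf-V5, so that CTCF carries a FLAG epitope with a HaloTag and Rad21 a SNAPf tag with a V5 epitope. Both lines were cross-linked with formaldehyde, and the label of both Smc3 libraries names the same Smc3 antibody. C59 is 1 clone, so the tags and other properties of that clone cannot be told apart. The design asks whether the tagged proteins leave cohesin where it is in untagged cells.

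Cohesin is built from Smc1a and Smc3, closed into a ring by Rad21 and bound by a Stag subunit. It is loaded by Nipbl and Mau2, enlarges chromatin loops and is released by Wapl. CTCF, a zinc finger protein, halts it at oriented binding sites, and most cohesin peaks of embryonic stem cells stand on CTCF sites. Rad21, the subunit that carries the tag in C59, closes the ring that holds Smc3.

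A WT peak is called found when a C59 peak overlaps it by at least 1 bp and missing otherwise, and a C59 peak with no WT peak is called C59-only. Missing means that no C59 peak passed the authors' threshold there, not that Smc3 was absent. Each line gave 1 Smc3 library, so there is no replicate spread, and no test of 1 line against the other was made. Intervals in brackets are exact 95% intervals and cover counting error only. Pileup is the authors' height of stacked reads at a peak's summit. It came as whole numbers in WT and in steps of 0.77 in C59, so it was compared between the lines only as a rank. Read totals of the libraries were not given in the files used here, and the length of a peak list also depends on them and on the yield of the immunoprecipitation.

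Promoters with an Smc3 summit give strong examples, not typical ones, from either side of the comparison. The 5 below were chosen after their values were seen, as the protein-coding promoters of highest pileup among those that hold a short form of the CTCF core motif (2 found and 2 missing), with the C59-only promoter of highest pileup, which holds none. Each runs 5′ to 3′ on the strand of the gene, from 250 bases before to 50 bases from the start site, and is RefSeq sequence of build GRCm38.p6. Capitals mark the motif, searched on both strands as CC, any 3 bases, AG, any 2 bases and GGC.
Irak2: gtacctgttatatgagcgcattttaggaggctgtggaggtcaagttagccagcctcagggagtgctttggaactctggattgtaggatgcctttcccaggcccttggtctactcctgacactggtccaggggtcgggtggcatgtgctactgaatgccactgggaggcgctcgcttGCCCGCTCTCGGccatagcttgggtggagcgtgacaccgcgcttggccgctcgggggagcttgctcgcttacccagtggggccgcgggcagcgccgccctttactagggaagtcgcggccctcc
Scnn1g: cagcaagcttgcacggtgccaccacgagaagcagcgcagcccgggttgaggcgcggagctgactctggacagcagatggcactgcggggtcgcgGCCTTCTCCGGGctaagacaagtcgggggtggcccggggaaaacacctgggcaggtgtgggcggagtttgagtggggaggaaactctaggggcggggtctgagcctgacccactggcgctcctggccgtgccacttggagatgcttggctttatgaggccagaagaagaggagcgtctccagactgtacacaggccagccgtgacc
Tor2a: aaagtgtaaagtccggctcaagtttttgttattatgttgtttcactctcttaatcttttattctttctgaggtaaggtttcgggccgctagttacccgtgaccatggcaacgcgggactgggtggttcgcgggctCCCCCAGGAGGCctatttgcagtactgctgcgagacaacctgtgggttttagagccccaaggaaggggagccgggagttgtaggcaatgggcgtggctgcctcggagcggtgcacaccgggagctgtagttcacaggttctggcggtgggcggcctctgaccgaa
Yjefn3: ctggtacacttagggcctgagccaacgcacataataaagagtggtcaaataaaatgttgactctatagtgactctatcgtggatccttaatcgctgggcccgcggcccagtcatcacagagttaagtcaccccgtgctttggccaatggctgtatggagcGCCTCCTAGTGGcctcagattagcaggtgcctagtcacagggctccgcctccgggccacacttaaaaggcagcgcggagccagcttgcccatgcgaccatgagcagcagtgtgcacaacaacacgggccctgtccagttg
Eif4a1: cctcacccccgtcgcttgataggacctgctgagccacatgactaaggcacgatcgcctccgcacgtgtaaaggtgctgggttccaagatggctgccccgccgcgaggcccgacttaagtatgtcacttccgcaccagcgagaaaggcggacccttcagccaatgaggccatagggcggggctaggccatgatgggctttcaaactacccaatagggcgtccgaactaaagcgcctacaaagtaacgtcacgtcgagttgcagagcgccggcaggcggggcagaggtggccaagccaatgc

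The promoter of Irak2, a kinase of interleukin-1 and Toll-like receptor signalling, lies at chr6:113638217-113638516 on the plus strand. Its Smc3 peak had a pileup of 161 and a width of 563 bp in WT, and 78.72 and 477 bp in C59. The summit stood at position -70 from the start site and the first base of the motif at -74, and the C59 summit differed from the WT summit by -4 bp. The promoter of Scnn1g, a subunit of the epithelial sodium channel, lies at chr7:121734229-121734528 on the plus strand. Its peak had a pileup of 150 in WT and 86.44 in C59, with widths of 905 bp and 669 bp, and summits 6 bp apart. The other promoters had a peak in 1 line alone. Tor2a, which encodes a torsin of the endoplasmic reticulum (chr2:32756984-32757283, plus strand), had a WT pileup of 69 with the summit at -116 and the motif at -115. Yjefn3 (chr8:69893934-69894233, minus strand) had a WT pileup of 68 and a local background of 15.3, at a fold enrichment over that background of 4.24. Both missing sites carried a CTCF peak in both lines, although no Smc3 peak was called there in C59. Eif4a1, an RNA helicase of translation initiation (chr11:69672374-69672673, minus strand), had a C59 pileup of 34.73 with no CTCF peak in either line. Outside this promoter, but within 1 kb of a start site of Eif4a1, a separate Smc3 peak was called in both lines. That peak began at chr11:69671118 in WT, with a pileup of 27 and a width of 998 bp, and had 31.64 and 1107 bp in C59. Only the peak in the promoter, not Smc3 at this gene, was thus particular to the C59 list.

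The motif stood in 8.73% of all 31396 promoters of the RefSeq table. It stood in 45.4% (41.1 to 49.8) of the 513 promoters that held the summit of a found Smc3 peak, in 34.2% (30.5 to 38.1) of the 620 that held a missing one and in 3 of the 20 that held a C59-only one. The found summits lay 28 bp (23 to 33) from the nearest match at the median and the missing summits 46 bp (35 to 55). Of the promoter sites with the motif 52.4% were found, and of those without it 40.7%. At their own pileups 59.3% and 45.9% would be found at the rate of all WT peaks, so both kinds of promoter site fell short of their pileup expectation. Their expectation from fold enrichment was not computed.

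Of the 46349 WT peaks, 24707 were found in C59, 53.3% (52.9 to 53.8), and 21642 were missing. In the other direction 24921 of the 25400 C59 peaks, 98.1% (97.9 to 98.3), had a WT peak, and 479 were C59-only. The C59 list was thus nearly contained in the WT list. Few matches stood at the edge of the rule: 17 found peaks overlapped by at most 50 bp and 20 missing peaks had a C59 edge within 50 bp, with a median WT pileup of 23 in both sets. The median missing peak was 15786 bp from the nearest C59 peak. With only the 25400 peaks of highest pileup taken from each list, 83.8% of WT peaks and 84.9% of C59 peaks had a partner.

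Height in WT separated found from missing peaks. The median WT pileup was 57 (56 to 57) at found peaks and 25 (25 to 26) at missing ones, at the percentiles 73.0 and 24 of the WT list. Among the weakest WT decile 3.99% of peaks were found, and the share was higher in each decile above it, with 44.2% in the fifth, 63.3% in the sixth, 92.9% in the eighth and 99.8% in the strongest. Found peaks were 575 bp wide and missing peaks 356 bp at the median. C59-only peaks were weak in their own list, with a median pileup of 20.07 against 32.41 at C59 peaks that had a WT partner, and narrow, with 293 bp against 402 bp.

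**Figure D1:**
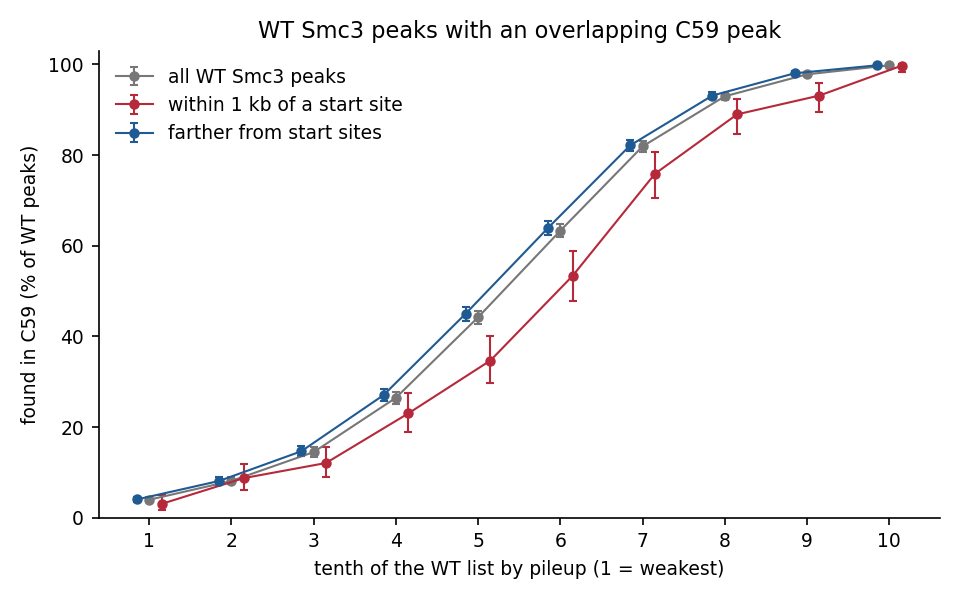
Share of WT Smc3 peaks found in C59 (y axis, percent) in each decile of the WT list by pileup (x axis), for all autosomal peaks and, without chromosome 18, for peaks within 1 kb of a start site and farther away; points are shares of peaks in 1 pair of libraries and bars exact 95% intervals. The share runs from 3.99% to 99.8%, and peaks at start sites lie below the others in every decile except the second. The intervals are apart in the fifth, sixth, seventh and ninth deciles and overlap in the rest.

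The strongest found peaks were 2 inside Sfi1 on chromosome 11, with WT pileups of 323 and 306 and C59 pileups of 246.96 and 202.2. They stood on a local background of 104 and 145 in WT, against a median of 5.29 for the WT list, and their fold enrichments were 3.1 and 2.1. The next were near Atp6v1b2 (a proton pump subunit), in Lif and in Jph3. The peak in Lif, the cytokine that keeps mouse embryonic stem cells undifferentiated, had a pileup of 246 and a width of 1543 bp in WT, and 155.12 and 959 bp in C59. Outside chromosomes 1, 8 and 11, which are described further on, the strongest found peaks lay near Chst8, Eif4b, Pfdn4 and Hif1an and in Polr3gl, with WT pileups of 240 to 222 and C59 pileups of 138.15 to 108.82, and C59 ranks among pairs from the percentile 99.7 upward.

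The strongest missing peaks had WT pileups far above the missing median. The one near Esrp2, a splicing regulator of epithelial cells, had 105, and the one in Unc13a, a gene of synaptic vesicle priming, had 99. Both lie on chromosome 8. The peaks in Tmem267 (99) and near Csf2ra (92) stood on backgrounds of 52.5 and 46.7, with fold enrichments of 1.87 and 1.95. The peak in G3bp2, a stress granule protein, had a pileup of 87 on a background of 6.79 and a CTCF peak in both lines. The 5 strongest C59-only peaks included those 48907 bp from Slc30a10 (a manganese exporter) and 73200 bp from Lonrf2. The others lay at the start of Eif4a1, in Spata3 and where Cox20 and Hnrnpu meet. The C59 pileups of the 5 were 37.82 to 33.19. All 5 lie on chromosome 1 or 11, which held 32.8% of C59-only peaks and 17.5% of all C59 peaks.

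CTCF peaks lay under nearly all found peaks and most missing ones. A WT CTCF peak overlapped 98.7% (98.5 to 98.8) of found and 91.1% (90.7 to 91.4) of missing Smc3 peaks. In C59 a CTCF peak overlapped 98.6% of found places and 86.0% (85.6 to 86.5) of missing ones, so at 18622 of the 21642 missing places CTCF was still called where Smc3 was not. Among the weakest WT decile 67.6% of the missing places had C59 CTCF, and in the seventh 99.8%. C59-only peaks had a C59 CTCF peak in 58.9% (54.3 to 63.3). The missing Smc3 summits stood 34 bp from the WT CTCF summit at the median, and the found ones 24 bp.

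At the 24257 places where 1 WT peak met 1 C59 peak, the summits stayed close. They lay 28 bp (27 to 28) apart at the median, with no preferred direction (a signed median of 0), and 94.7% lay within 100 bp. The distance was 40 bp in the weakest decile of pairs by WT pileup and 21 bp in the strongest. The Smc3 summit lay 24 bp from the CTCF summit in both lines, and the CTCF summit itself moved by 12 bp (11 to 12). The 229 pairs with no CTCF peak in either line had summits 90 bp (68 to 108) apart. Only 226 pairs, 0.932%, were more than 200 bp apart, and 25.2% of these lacked WT CTCF, against 0.745% of the other pairs. Those far-apart pairs were broad in WT, 843 bp against 572 bp.

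The pair with the largest distance lay in Acp4, an acid phosphatase gene, where a WT peak of 963 bp met a C59 peak of 297 bp with its summit at -848 bp. In Cyp4f14, a cytochrome P450 gene, the distance was 791 bp, between peaks of 1260 bp and 315 bp. At 1572 bp from Lncenc1, a noncoding RNA gene of embryonic stem cells, it was -746 bp, and there the C59 peak was the wider one, 1485 bp against 518 bp. In all 3 pairs a narrow peak of one line stood at one side of a broad peak of the other.

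C59 peaks were narrower. The median width of paired peaks was 573 bp (570 to 576) in WT and 401 bp (399 to 402) in C59, and the median ratio of C59 to WT width was 0.710 (0.707 to 0.713). The C59 peak was narrower in 92.3% of pairs and lay wholly inside the WT peak in 74.2%. The 2 sides lost the same length at the median, 76 bp each. The ratio was 0.802 in the weakest decile of pairs and between 0.685 and 0.722 in the others, where the C59 width stayed below the WT width at each height. A peak's width also depends on where the caller's threshold cuts its flanks, and the depth of the libraries was not tested as a part of this difference.

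**Figure D2:**
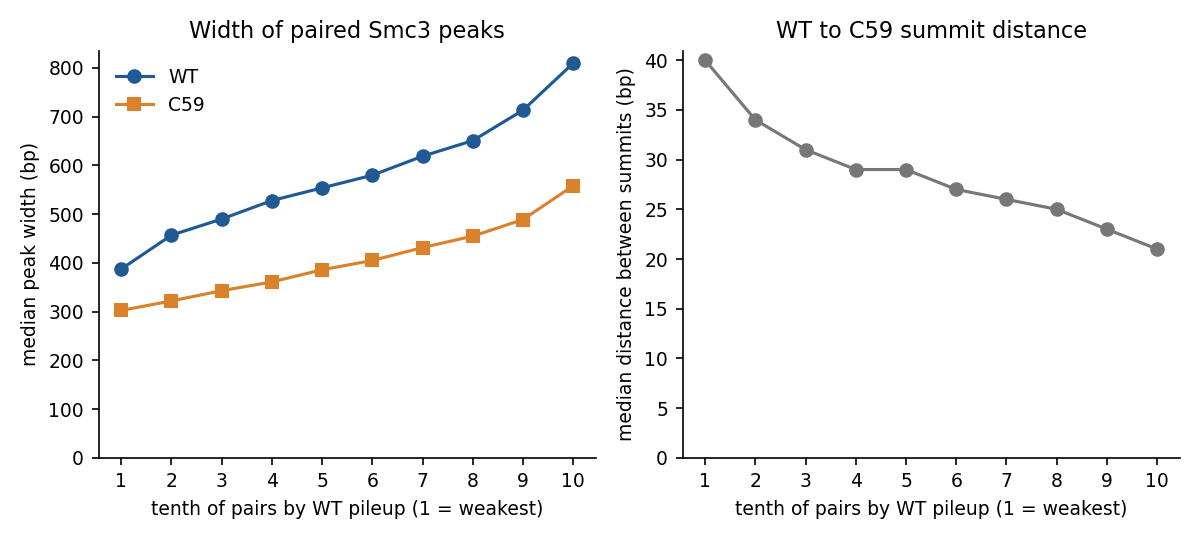
Median peak width in bp in WT and C59 (left) and median distance in bp between the WT and C59 summits (right) of the 24257 pairs, in deciles of pairs by WT pileup; each point is the median of the pairs of a decile. C59 widths lie below WT widths in every decile, and the summit distance is 40 bp in the weakest and 21 bp in the strongest decile.

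The pairs furthest from this ratio went both ways. C59 peaks were wider than WT peaks by a ratio of 3.57 in Tspan31 (1054 bp against 295 bp), 3.25 near Rpl14, a ribosomal protein gene (1025 bp against 315 bp), and 3.12 in Lncenc1 (1181 bp against 378 bp). The C59 peak was narrowest against WT near 4921524J17Rik on chromosome 8 (250 bp against 1440 bp), next to Phb2, a prohibitin gene (259 bp against 1400 bp), and near Adamtsl4 (311 bp against 1650 bp). All 3 were broad in WT.

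The order of heights was largely kept among pairs. Spearman's correlation between WT and C59 pileup over the 24257 pairs was 0.786, a description across places that share their libraries, and 0.816 without chromosomes 1, 8 and 11. Spearman's correlation was 0.597 for fold enrichment and 0.582 for width. The rank of a pair among all pairs differed between the lines by 10.8 percentile points (10.7 to 11.1) at the median, by over 25 points in 17.8% of pairs and by over 50 points in 1.50%. Of the strongest decile of pairs in WT, 63.8% were in the strongest decile in C59, and of the weakest decile 44.4% were in the weakest.

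The histone genes stood apart in rank and width. Most of them encode core and linker histones made in S phase, are short and without introns, lie in clusters and give transcripts without a poly(A) tail. Histone genes were looked at as a class after the largest rank differences had been seen, by the symbols of the H1f, H2ac, H2bc, H3c and H4c families. Of 48 WT peaks with a summit within 1 kb of a start site of these genes, 46 were found, 95.8% (85.7 to 99.5), where the rate of all WT peaks is 53.3% and peaks of the same pileup would give 24.7 of 48 and peaks of the same fold 21.7. Only 11 of the 48 had a WT CTCF peak, where 98.7% of all found and 91.1% of all missing WT Smc3 peaks had one. The 45 one-to-one pairs ranked at the percentile 15.1 (8.49 to 30.0) of pairs in WT and 72.4 (64.8 to 82.7) in C59, and 44 of them ranked higher in C59, by 50.1 points (43.3 to 55.9) at the median. The exception was H1f10, a linker histone gene on chromosome 6 outside the clusters, with -33.4 points. It had a WT CTCF peak, but the other histone pairs with WT CTCF all ranked higher in C59, by 22.8 to 74.2 points. Weak WT peaks have more room to move up than down, and the histone pairs were not compared with pairs of the same WT decile. For all pairs in the second decile by WT pileup, the median percentile was 15.1 in WT and 21.2 in C59.

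The values of single histone peaks show the same contrast. Next to H3c11 the pileup was 32 in WT and 54.8 in C59, which moved the pair from the percentile 9.60 to 88.7, and the width was 384 bp in WT and 641 bp in C59. Next to H4c1 the pileup was 38 and 60.2, and at H2ac6 and H2bc4, at chr13:23684571-23684979 in WT, it was 31 and 47.85. At H4c11 it was 45 and 63.28. At H2ac10 and H3c8 the pair differed by only 3.87 points, with 26 and 20.07. The histone pairs were 625 bp wide in WT and 673 bp in C59 at the median, a ratio of 1.08 (0.989 to 1.20), and 29 of 45 were wider in C59, against 40.9% (33.1 to 49.1) of pairs without CTCF and 7.18% of pairs with CTCF away from start sites.

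Smc3 at these genes stood behind them, not on the promoter. The WT summit lay 156 bp (124 to 185) past the 3′ end of the nearest histone gene and the C59 summit 148 bp (126 to 175). Within 250 bp of a 3′ end lay 35 of 45 WT summits and 40 of 45 C59 summits, and within 250 bp of a start site 0 of 45 in both lines. Of the 45 pairs 40 lie on chromosome 13 and 4 on chromosome 3, and both groups ranked higher in C59, by 51.0 and 41.4 points at the median. The local background under these pairs was 5.94 in WT and 4.05 in C59, where the lists had 5.29 and 4.43. With fold enrichment in place of pileup the difference was 48.8 points. Overlapping and near-identical histone genes share reads, and the sources used here do not state how the authors placed reads with several matches.

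**Figure D3:**
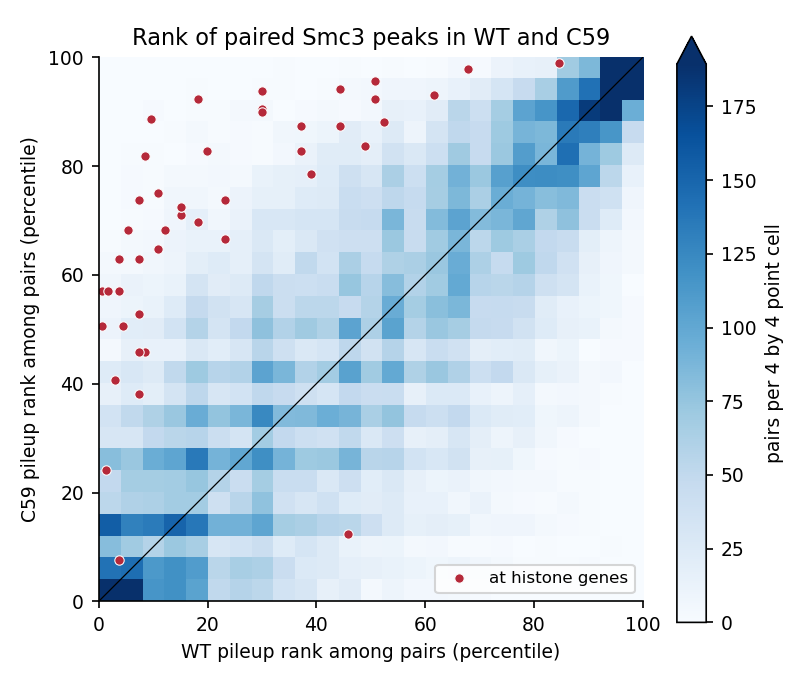
Percentile rank of pileup among the 24257 one-to-one pairs in WT (x axis) and C59 (y axis); shading counts pairs per cell of 4 by 4 points (whole-number pileups give the stripes), the line marks equal rank, and red points are the 45 pairs at histone genes. All but 1 of the red points lie above the line.

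Histone genes of these symbols made up 36 of the 77 pairs that lay within 1 kb of a start site and had no WT CTCF peak. These 77 pairs ranked 34.6 points (25.6 to 43.1) higher in C59 at the median, 73 of them higher, with a width ratio of 1.04 (0.976 to 1.12). One more lay at H4f16, a histone H4 gene outside these symbols, with a pileup of 39 in WT and 37.04 in C59. The 40 others ranked 10.1 points (2.58 to 25.6) higher, with a ratio of 0.99, and were not compared with pairs of the same WT decile. The 1417 pairs at start sites with CTCF differed by -1.52 points (-2.18 to -0.851) and had a ratio of 0.683. The 154 pairs without CTCF away from start sites ranked 8.81 points (4.93 to 13.9) higher, but weak WT peaks have more room to move up than down, and against pairs of the same WT decile the difference was 0.618 points (-3.61 to 5.34). By the same reckoning the 77 start-site pairs were 30.3 points (18.3 to 38.2) higher. Ribosomal protein genes had 25 WT peaks at start sites with 7 found, where their pileups would give 8.30 and their fold enrichments 6.76. Of the 25 peaks 17 had WT CTCF, also a smaller part than the 98.7% of all found and 91.1% of all missing WT Smc3 peaks. The 7 pairs differed by 0.0289 points (-5.31 to 10.7) at the median.

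The other large rank differences were these. Apart from histone genes, the largest gains lay near Fam135a on chromosome 1 (WT pileup 31, C59 54.02) and 2137 bp from H19, the imprinted noncoding RNA gene, where a peak with CTCF in both lines had 29 in WT and 49.39 in C59. That pair went from the percentile 6.36 to 83.6, with widths of 921 bp and 882 bp. The 5 largest falls in rank all lay on chromosome 8, near Gpat4, in Cers4, Zfp423 and Adat1 and near Irf2. In Zfp423, a zinc finger gene of neural and fat cell development, the pileup was 96 in WT and 20.07 in C59 and the width 816 bp and 273 bp. Outside chromosomes 1, 8 and 11 the largest fall was in Tcf7l1, the repressor of Wnt targets that acts against self-renewal, where the pileup was 76 in WT and 19.29 in C59 and the rank differed by -69.7 points. Next came pairs 18184 bp from Armh4 and in Rab11fip3, Xrcc1 and Fbxo2, with WT pileups of 76 to 91 and C59 pileups of 20.84 to 23.92.

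Chromosomes 1, 8 and 11 differed from the other 16 autosomes. The local background under Smc3 peaks, computed from pileup and fold, was 1.50 times that of the other autosomes on chromosome 8 in WT and 1.00 times in C59. The WT and C59 ratios were 1.04 and 1.50 on chromosome 1, and 1.25 and 1.50 on chromosome 11. On chromosome 8 45.4% (43.6 to 47.3) of WT peaks were found, on chromosome 1 64.7% (63.0 to 66.4) and on chromosome 11 59.5% (58.0 to 61.1), where the others had 48.7% to 55.5%. At their own pileups 64.1%, 53.3% and 59.2% would be found, and at their own folds 50.6%, 53.5% and 51.8%. Pairs on chromosome 8 ranked -22.2 points different in C59, pairs on chromosome 1 18.6 points and on chromosome 11 8.05 points, while the other autosomes lay between -3.20 and -0.0041 points. The width ratios followed the same order, 0.635 on chromosome 8, 0.748 on chromosome 11 and 0.797 on chromosome 1, and the others lay between 0.693 and 0.728. Summit distances did not, with 26 to 29 bp on every autosome. The cause of the raised backgrounds was not tested.

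**Figure D4:**
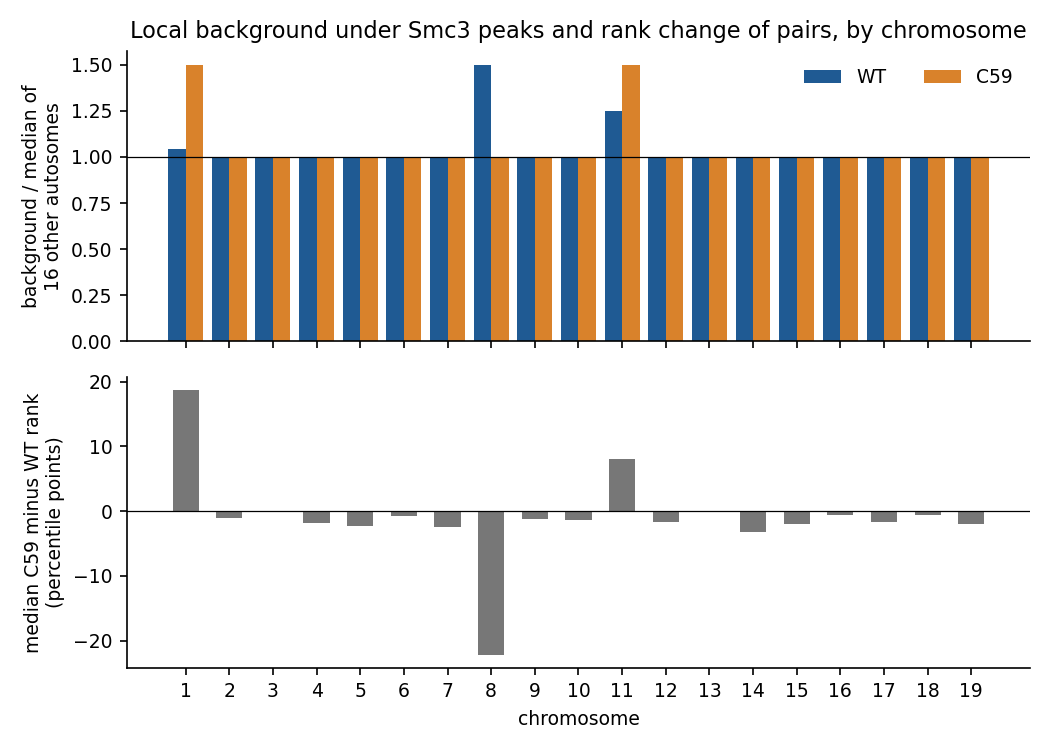
Median local background under Smc3 peaks of each autosome divided by that of the 16 autosomes other than 1, 8 and 11, in WT and C59 (top), and median C59 minus WT rank of pileup among pairs in percentile points (bottom). Background is 1.50 times the others on chromosome 8 in WT and on chromosomes 1 and 11 in C59, and the median rank difference is -22.2, 18.6 and 8.05 points there.

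Missing peaks were interleaved with found ones rather than set apart. The nearest other WT peak lay 7916 bp (7727 to 8107) from a found peak and 7557 bp (7391 to 7776) from a missing one at the median. In C59 the nearest neighbour lay at 14957 bp, where the WT list had 7755 bp. Of the missing peaks 38.0% had a found peak within 10 kb. A WT peak whose nearest neighbour was found was itself found in 55.0% (54.3 to 55.6), and one whose neighbour was missing in 51.4% (50.7 to 52.0). Where another WT summit stood within 1 kb, 43.0% (41.3 to 44.7) were found.

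Peaks in crowded places were found slightly less often as counted. In the quintile of peaks with the closest neighbours 50.9% (49.8 to 51.9) were found and in the most isolated quintile 55.1% (54.1 to 56.1). In the quintile of peaks from the sparsest 1 Mb windows 56.5% (55.5 to 57.5) were found and in the quintile from the densest 50.2% (49.1 to 51.2). Averaged over deciles of WT pileup, the gap between sparse and dense windows was wider, 58.2% and 48.8%. In the sixth decile of pileup alone it was 74.8% (72.0 to 77.5) and 52.7% (49.4 to 56.0). Averaged over deciles of WT fold enrichment it was 53.4% and 52.9%, and that between crowded and isolated peaks turned to 53.8% and 53.4%. Local background moved with density, at 4.62 in the sparsest and 5.94 in the densest quintile. Its part in the gap was not tested beyond this comparison of pileup with fold.

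**Figure D5:**
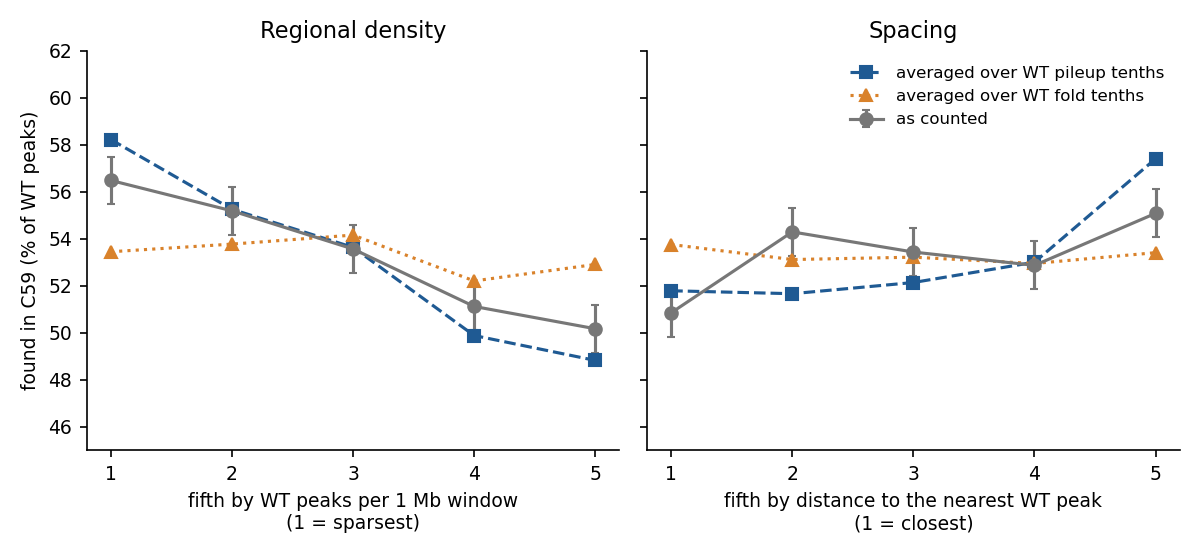
Share of WT Smc3 peaks found in C59 (y axis, percent, not starting at 0) in quintiles of peaks by the number of WT peaks in their 1 Mb window (left) and by distance to the nearest other WT peak (right), as counted with exact 95% intervals and averaged over deciles of WT pileup or of WT fold enrichment. The line over fold deciles stays between 52.2% and 54.2%, whereas the line over pileup deciles runs from 58.2% in the sparsest to 48.8% in the densest quintile.

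Over the 531 windows of 1 Mb with at least 30 WT peaks, the found share ran from 23.7% to 78.8%, with quartiles of 44.5%, 51.4% and 58.8%. The pileups of the peaks alone would give quartiles of 48.9%, 54.0% and 59.4%, and their fold enrichments 47.1%, 52.0% and 56.8%. Of the 20 windows more than 20 points below the pileup expectation, 19 lay on chromosome 8. For all WT peaks of that chromosome, pileups would give 64.1% found and fold enrichments 50.6%. The windows at either end were picked from all 531, and the interval of each is wide. The highest share was 26 of 33 peaks (61.1% to 91.0%) on chromosome 2 from 131000000, around Cdc25b and Mavs, where pileups would give 74.7%. Next came 27 of 35 on chromosome 1 from 120000000, with the homeobox gene En1, and 27 of 35 on chromosome 11 from 113000000, with Sstr2. Both have an interval of 59.9% to 89.6%, and pileups would give 61.1% and 67.1%. Fold enrichments would give 73.4%, 60.2% and 60.7% in these highest windows. The lowest were 9 of 38 (11.4% to 40.2%) on chromosome 5 from 110000000 (Chfr, Pole) and 11 of 44 (13.2% to 40.3%) on the same chromosome from 124000000 (Kmt5a). Then came 12 of 43 (15.3% to 43.7%) on chromosome 8 from 33000000 (Wrn). Pileups would give 36.8%, 43.4% and 54.5% in these lowest windows. In the 3 densest windows, on chromosomes 4, 8 and 11, 41, 38 and 47 peaks were found, 40.6%, 37.6% and 48.5%.

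Unbroken runs gave the same picture at a finer scale. The longest run of found peaks held 22 at chr2:131509929-132139579, around the prion gene Prnp, where pileups would give 18.3 found. A run of 17 found peaks lay in a part of the histone cluster on chromosome 13, at chr13:23530898-23698273, where pileups would give 8.70. Histone genes with Smc3 pairs go on past its end, as at H1f2 (chr13:23738909). Other runs of 17 lay on chromosome 17 around Pde10a (pileups would give 9.86) and on chromosome 1 around Bcl2 (13.6). Because a run of found peaks is all found by definition, its excess over the pileup expectation is built in. The longest runs of missing peaks were 14 next to Rybp on chromosome 6, 13 around Ccr4 and Trim71 on chromosome 9 and 13 across the Pcdhg cluster of protocadherin genes on chromosome 18. Runs of 12 lay near Sall1 on chromosome 8 and around Cyp3a11 on chromosome 5. Median pileups in these missing runs, in that order, were 22.5, 25, 29, 28.5 and 21, close to the median of 25 of all missing peaks. Pileups would give 1.65, 3.27, 4.29, 3.53 and 1.82 found in them.

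Start sites held a larger part of the missing than of the found peaks. Chromosome 18 was not used here. Within 1 kb of a RefSeq start site lay 6.38% (6.07 to 6.69) of found, 9.30% (8.91 to 9.70) of missing and 12.4% (9.55 to 15.7) of C59-only peaks. Of WT peaks at start sites 43.9% (42.2 to 45.5) were found, and of the others 54.1% (53.6 to 54.6). Averaged over deciles of pileup the shares were 49.3% and 53.6%, and over deciles of fold 51.2% and 53.5%.

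Genes of the cohesin machinery, of pluripotency and of early lineages were examined for WT peaks within 10 kb, beside the 53.3% of all WT peaks. In the machinery list, 8 of 26 peaks were found, 30.8% (14.3 to 51.8), where pileups would give 43.7%, a share inside that interval. For most of these genes fold enrichments would give fewer found than pileups, as for Stag1 (1.78 against 2.95). They would give more for Esco1 (1.19 against 0.885) and Nipbl (1.97 against 1.91). Around Smc3 itself 1 of 4 peaks was found, with WT pileups of 91 at the found and 35, 21 and 22 at the missing peaks. Around Stag1, a cohesin subunit, 1 of 6 was found, and around Wapl, which releases cohesin, 0 of 3 (pileups 26, 26 and 29). Around the loader gene Nipbl 2 of 4 were found, and the single peak around Ctcf was found. In the pluripotency list 29 of 80 peaks were found, 36.3% (25.8 to 47.8), near the 37.3% that pileups would give.

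Esrrb, a nuclear receptor of the naive state, had 10 WT peaks and 1 found, with a pileup of 87 at the found peak and 20 to 39 at the others. Around Nanog 4 of 9 were found, with pileups of 55, 34, 24 and 96 at the found peaks and 18 to 28 at the missing ones. Around Tbx3 4 of 8, around Sall4 3 of 8 and around Sox2 5 of 7 were found. Dppa5a had 1 of 5. In the lineage list 22 of 43 were found, 51.2% (35.5 to 66.7), where pileups would give 48.1%. Around Eomes, a T-box factor of mesoderm and endoderm, 2 of 7 were found, around Olig2, a neural factor, 3 of 7, with pileups of 76, 118 and 117 found and 48, 20, 16 and 24 missing, and around Sox1 2 of 5. Gata4 had 2 of 4.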

How the data were processed

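Smc3 and CTCF ChIP-seq peak lists of 2 lines, 1 library each, were used, with groups taken from GEO's sample labels. The labels' extraction protocol mentions anti-Rad21 rather than anti-Smc3, but the antibody given for both Smc3 libraries is Smc3, and that was followed. Tools named in the submitters' processing notes, without their roles, are Bowtie 0.12.8, FastQC 0.10.1, deepTools 2.4.1, MACS2 2.1.0.20140616 and CASAVA, with build mm10. The control library, threshold and fragment length behind the peaks are not stated in these sources. The labels' protocols give single-end sequencing.

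The lists had no header and the columns of a MACS2 table, with positions counted from 1. The pileup signal at the summit is the authors' value, whole numbers in WT and scaled in steps of 0.77 in C59. The authors deposited a q-value and a p-value per peak, not as logarithms. Fold enrichment, pileup over local background, is also as the authors deposited it, and the background was computed from it as pileup plus 1, divided by fold, minus 1. Peak length and summit were deposited by the authors in bp. These values rank and describe peaks within a list only.

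Peaks were matched by an overlap of at least 1 bp in Python 3.11.15 (pandas 2.3.3, numpy 2.4.6, scipy 1.17.1, matplotlib 3.10.9 for plots), with the code checked on simulated lists. One-to-one pairs are a WT and a C59 peak that overlap each other and no other peak, and ranks of pairs are percentiles among these. A share expected from pileup or fold is the mean, over the peaks concerned, of the found share of their decile of the WT list. Shares carry Clopper-Pearson and medians order-statistic intervals at 95%. Start sites, genes and promoter sequences came from RefSeq tables of GRCm38.p6, whose promoter table has no rows used here for chromosome 18. No genome was used, so promoters were searched in place of summit-centred sequence.

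Named places were the 5 strongest found, missing and C59-only peaks and the 5 largest rank differences each way. Further places were the 3 largest summit shifts, the 3 largest and smallest width ratios and the windows at either end, plus genes of 3 lists. Single peaks were named by the nearest protein-coding gene, and a noncoding gene can lie nearer. H19 and Lncenc1 are noncoding genes that lay nearer and were named instead. All members, lists and rules were chosen with earlier results of these data known. Alternatives covered the overlap rule, q, equal list length, fold, window size and chromosomes 1, 8 and 11.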

Additional observations from a re-analysis of the deposited data

How the results depend on the processing

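No paired analysis was possible because each line gave 1 Smc3 library. Of 55 alternatives computed, 26 left the value within its interval, 27 moved it further and 2 turned its sign. Found shares were 46.7% of WT and 85.2% of C59 peaks with overlap of at least 50% of both peaks, 50.2% and 91.6% with summits within 100 bp, 55.0% and 98.4% at a q of at most 1e-05, 83.8% and 84.9% with equal numbers of peaks, and 52.3% and 98.4% without chromosomes 1, 8 and 11. Spearman's correlation of pileup was 0.775 at that q, 0.816 without the 3 chromosomes and 0.597 with fold. The width ratio was 0.713, 0.704 and, for WT widths of at least 400 bp, 0.689. Crowded minus isolated sites gave -6.40 points with summits within 100 bp and 0.348 over fold deciles, a turned sign. Densest minus sparsest windows gave -9.39 points over pileup deciles, -0.541 over fold deciles, -8.79 in windows of 250 kb and -3.15 in windows of 5 Mb. The distance to the nearest peak, found minus missing, was 639 bp with summits within 100 bp, 2043 bp over pileup deciles and -125 bp over fold deciles, again a turned sign. In both cases the cause was not tested. CTCF summits within 100 bp stood at 73.7% of missing places in C59, and the spread over windows of at least 15 peaks was 16.0 points between quartiles, against 14.3. With alternatives chosen after seeing the data, 75% of peaks at histone genes were found by summits within 100 bp, start-site pairs without CTCF ranked 43.4 points higher at the stricter q, and histone pairs 48.8 to 53.9 points higher. Depth could not be compared, and a weak site in C59 may lie just under the threshold.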

Other observations

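The widest Smc3 peaks, chosen after their values were seen, included those at Malat1 and Neat1, both noncoding RNA genes. The widest in WT, 5528 bp, covered the 3′ end and much of the body of Malat1, an abundant nuclear RNA, and overlapped 2 C59 peaks of 1983 bp and 6931 bp. The C59 peak of 6931 bp was the widest of its list and overlapped 2 WT peaks of 5528 bp and 3797 bp. Neither of these widest peaks had CTCF in either line. At Neat1, the neighbouring RNA gene, 1 WT peak of 4818 bp stood over 4 C59 peaks of 459 to 1614 bp. In Zmynd8 6 WT peaks stood where C59 had 1 of 5390 bp. In Tsc22d1 1 WT peak of 3973 bp stood over 2 C59 peaks of 744 and 533 bp.

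A peak at chr7:3217621-3222667 kept its breadth, with 5047 bp in WT and 4803 bp in C59, pileups of 96 and 99.56 and fold enrichments of 9.39 and 13.87. Among pairs the peak ranked at the percentile 88.8 in WT and 99.5 in C59. It covered 9 miRNA genes of the miR-290 to miR-295 cluster, the main miRNA cluster of mouse embryonic stem cells. Of 17 mature miRNAs under the peak in the RefSeq table (GRCm38.p6), 3 share the seed that defines the cell-cycle family of this cluster, in capitals at bases 2 to 8.
mmu-miR-291a-3p: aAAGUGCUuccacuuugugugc
mmu-miR-294-3p: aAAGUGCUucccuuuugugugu
mmu-miR-295-3p: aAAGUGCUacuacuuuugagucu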
